A study of Mus musculus with 46 samples.

Results

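The genes described here are the cyclins, the cyclin-dependent kinases (CDKs) and the regulators around them that drive the mouse cell cycle: the Cdc25 phosphatases, the E2F transcription factors and the pocket proteins of the retinoblastoma family. They were chosen by symbol alone, as every gene whose probe set carried a single symbol of the form Ccn, Cdk, E2f, Cdc25, Rb1 or Rbl followed by the letter or number of a family member. The rule gave 56 of the 19938 genes measured, each read from its brightest probe set. Of these, 55 had at least 1 group mean above the background level of 161 intensity units and 48 had all 8 group means above it. That level is the 95th percentile of the mean over lines of 1027 olfactory receptor genes, a family transcribed mainly in olfactory neurons.

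The study profiled 23 cell lines in 2 cultures each on whole-transcript arrays, and compared male germline stem cells with pluripotent lines obtained from them by different routes. Germline stem (GS) cells are cultured spermatogonial stem cells, and multipotent germline stem (mGS) cells are the pluripotent cells that arise from them. The induced mGS lines were made by lentivirus: the 3 Dnmt mGS lines with p53 and Dnmt1 knocked down, the 3 Dmrt mGS lines with p53 and Dmrt1 knocked down, the 3 Sox2 mGS lines with Sox2 added and p53 knocked down, and the 3 Oct4 mGS lines with Oct4 added and p53 knocked down. These 4 sets are called the 4 routes below. The 2 mGS lines appeared spontaneously in GS culture. The 3 GS lines were kept in StemPro-34 serum-free medium on mouse embryonic fibroblast feeders. The 3 induced pluripotent (iPS) lines, numbered 1, 2 and 5, carried retroviral Oct4, Sox2, Klf4 and c-myc. The 3 embryonic stem (ES) lines were R1 (a cross between 129 substrains), B6-6 (C57BL/6J) and BRC1 (a C57BL/6, DBA/2 and 129 mixture). All lines other than ES came from DBA/2 mice carrying a GFP transgene, and all lines other than GS were grown on feeders with serum and LIF. Medium and cell type therefore cannot be told apart in any comparison with GS, and strain and cell type cannot be told apart in comparisons with ES. Feeders were removed on gelatin before RNA was taken.

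As background, cyclins switch on CDKs at set points of the cycle. D cyclins with Cdk4 and Cdk6, and E cyclins with Cdk2, phosphorylate the pocket proteins in G1, which frees the activating E2Fs to transcribe genes for DNA replication; A and B cyclins with Cdk1 then carry the cell through G2 and mitosis. Mouse ES cells are known for a short G1 with cyclin E and Cdk2 active throughout the cycle, whereas cyclin D2 is known as a growth-factor-induced cyclin of cultured mouse spermatogonial stem cells.

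The array medians ran over a narrow range, 215.4 to 242.5 in all arrays but culture 1 of Oct4 mGS 1, at 264.8. Germline stem cell markers averaged 5478 to 6511 in the GS lines, against 177 to 262 in all other lines, and pluripotency markers averaged 172 to 213 in the GS lines, against 1107 to 3675. The low end lay in Sox2 mGS (1107 to 2017) and Oct4 mGS lines (1248 to 2998), against 2202.5 to 3675 in the other pluripotent lines. Single markers fell below the GS lines there. Zfp42 read 220, 287 and 247 and Tfcp2l1 221, 278 and 294 in Sox2 mGS 2, Sox2 mGS 3 and Oct4 mGS 2. GS lines read 308 to 337 and 391 to 520. Nanog and Pou5f1 stayed above all GS lines in every Sox2 and Oct4 mGS line. Feeder fibroblast markers varied between lines of 1 group: the mean over 12 markers was 248 to 1348 for Dnmt, 256 to 1007 for Dmrt, 1492 to 2119 for Sox2 and 694 to 1667 for Oct4 mGS lines, 286 to 907 in mGS, 245 to 789 in GS, 249.8 to 372 in iPS and 350.3 to 1277 in ES lines. The mean over 8 testis somatic cell markers was 161 to 174 in GS lines and 130 to 187 elsewhere, but single markers were higher: 3 to 4 of the 8 were above background in each GS line and 2 to 4 in each other line. Sox9 read 497 to 599 in GS lines and 324 to 837 in the others, and Wt1 341 to 854 and 103 to 1179; their part in the results was not tested. Dnmt1 itself read 620.0 and 647 in Dnmt mGS 1 and 3, whereas the line labelled Dnmt mGS 2 had 2752. That level was like the 2772 of Dmrt mGS 1 and above the 1934 to 2336 of the other Dmrt, Sox2 and Oct4 mGS lines. The counts for Dnmt mGS lines, and the differences of the genes named with them, are therefore also given without that line. Sox2 read 1253 to 1303 in the lines labelled Sox2 mGS, below the 1689 to 5544 of all other pluripotent lines and inside the 293 to 1807 of GS lines, so its level goes against that label; whether the probe set reads the added copy was not tested. The name Sox2 mGS is used below as the label only. Pou5f1, the gene of Oct4, read 4649 to 5248 in Oct4 mGS lines, within the 4042 to 5563 of the other pluripotent lines, and p53 is not analysed here. In arrays of whole cultures, fewer cells of a type and less RNA per cell cannot be told apart.

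GS lines stood apart from every other line on a part of the 56 genes. All 3 GS lines were above all 20 other lines for 10 genes: Rb1, Rbl1, Ccnb3, Ccnh, Ccni, Ccnj, Ccny, Cdk8, Cdk10 and Cdk20. The share of all genes with that order was 16.1%, so the count of 10 in 56 is near the background. All 3 GS lines were below all 20 others for 9 genes: Ccne1, Cdk1, Cdk2, Cdc25a, E2f4, E2f8, Rbl2, Ccnc and Cdk18. The share of all genes with that order was 11.1%, so the count of 9 in 56 is not far from the background either. Neither count sets these genes apart from genes at large. The remaining 37 genes overlapped. The genes below in GS include the cyclin E1, Cdk2, Cdk1 and Cdc25a genes of the G1/S and G2/M engines. They also include the E2F genes E2f4 and E2f8 and the pocket protein gene Rbl2. Those above include the retinoblastoma gene Rb1 and its relative Rbl1, and the rest of them are cyclin and CDK genes. Within a line the 2 cultures differed by a median of 0.07 on the log2 scale for these genes, and lines of 1 group by 0.17.

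**Figure D1:**
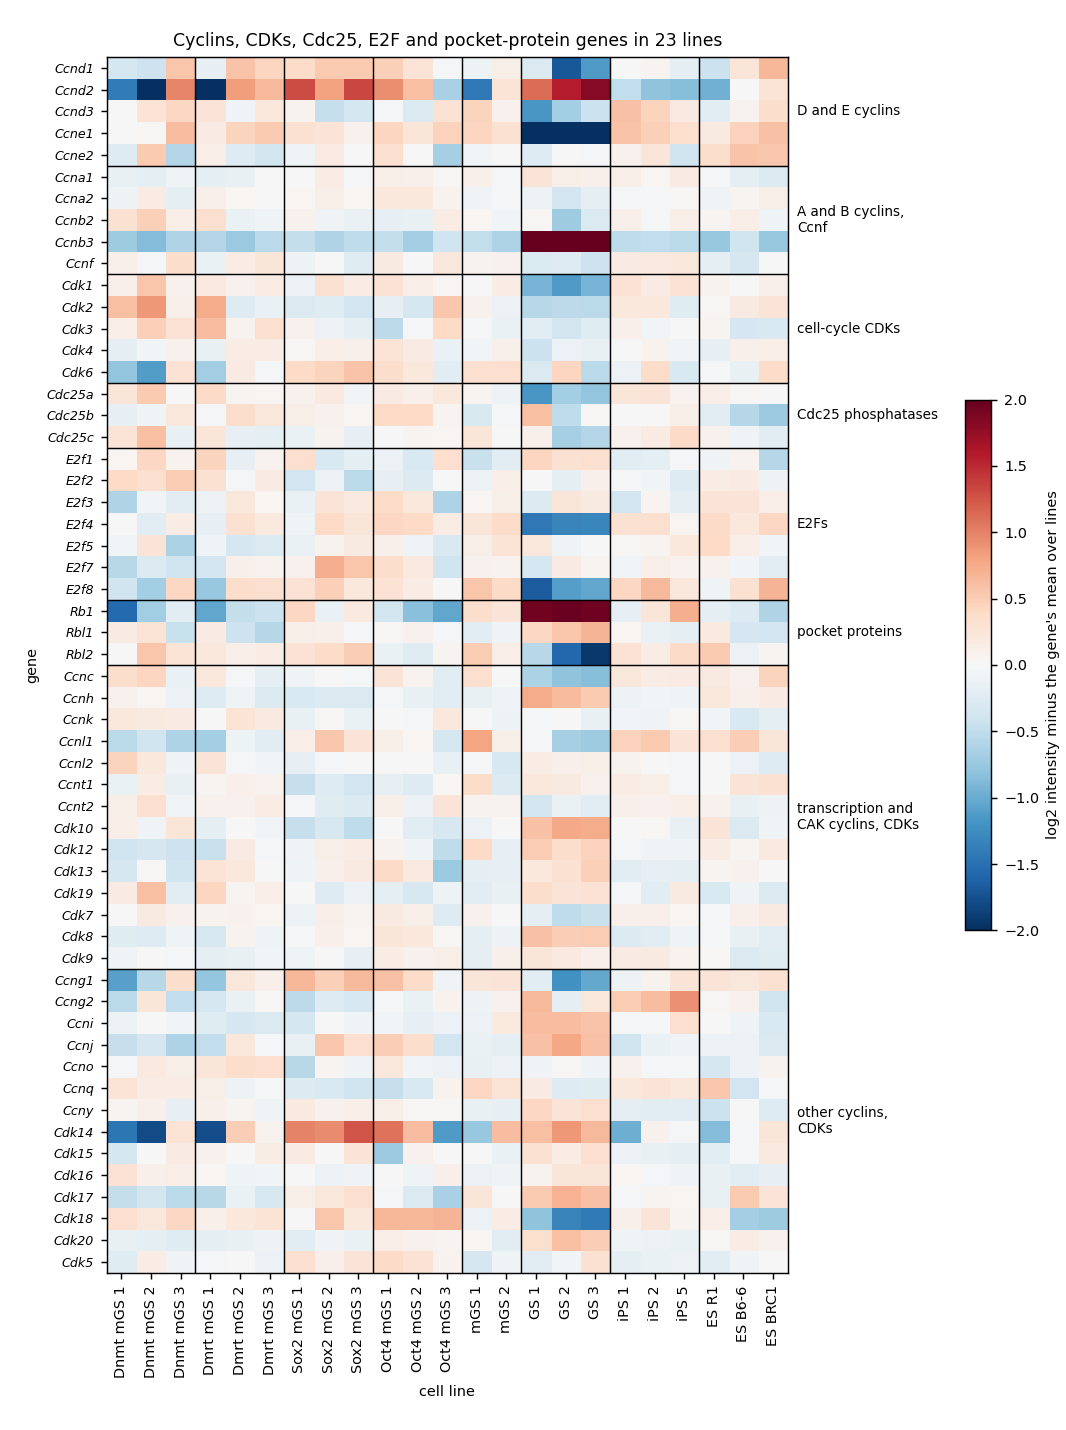
Heat map of the 56 genes (rows, by role) in 23 lines (columns, by group); colour is the log2 intensity of the line minus the gene's mean over the 23 lines, capped at 2 on either side. Ccne1, E2f4, E2f8 and Cdk1 are blue and Ccnb3 and Rb1 are red in the 3 GS columns, and Ccnd2 and Cdk14 change from line to line within groups.

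Promoter windows from RefSeq (build GRCm38.p6), running from 250 bases before to 50 bases after each transcription start, were matched by symbol to 42 of the 56 genes. Cdk2, Rbl2, Ccnc and Cdk18 were also low in GS lines and had windows, which are not shown. The windows of Ccne1, E2f8, Cdk1 and Cdc25a are shown as examples of genes low in GS lines, and that of Ccnb3 because it had the highest difference. They lie at chr7:38107441-38107740, minus strand for Ccne1, chr7:48881547-48881846, minus strand for E2f8, chr10:69352863-69353162, minus strand for Cdk1, chr9:109875329-109875628, plus strand for Cdc25a and chrX:7041570-7041869, minus strand for Ccnb3. Each is written 5′ to 3′ on the strand of the gene, with capitals for matches on either strand to the E2F motif (TTTCCCGC, TTTCGCGC, TTTGCCGC or TTTGGCGC), the CHR element TTTGAA of mitotic gene promoters, or the CCAAT box.
Ccne1: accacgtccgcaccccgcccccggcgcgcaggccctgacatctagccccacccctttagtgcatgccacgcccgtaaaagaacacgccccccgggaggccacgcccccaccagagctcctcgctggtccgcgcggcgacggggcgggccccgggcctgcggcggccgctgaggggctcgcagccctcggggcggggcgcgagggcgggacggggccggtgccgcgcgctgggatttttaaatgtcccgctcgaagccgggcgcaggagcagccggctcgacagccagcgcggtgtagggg
E2f8: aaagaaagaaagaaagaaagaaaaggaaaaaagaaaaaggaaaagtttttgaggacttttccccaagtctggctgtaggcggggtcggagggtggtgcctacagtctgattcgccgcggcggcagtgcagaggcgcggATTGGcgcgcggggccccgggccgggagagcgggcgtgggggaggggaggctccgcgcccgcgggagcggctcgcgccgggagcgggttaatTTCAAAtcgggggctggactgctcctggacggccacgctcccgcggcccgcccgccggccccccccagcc
Cdk1: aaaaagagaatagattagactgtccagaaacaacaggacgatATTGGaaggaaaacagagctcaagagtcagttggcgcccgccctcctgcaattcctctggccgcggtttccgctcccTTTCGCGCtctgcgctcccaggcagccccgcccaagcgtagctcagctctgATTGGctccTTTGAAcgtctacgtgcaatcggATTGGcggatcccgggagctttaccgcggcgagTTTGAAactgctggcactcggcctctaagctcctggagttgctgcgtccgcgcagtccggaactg
Cdc25a: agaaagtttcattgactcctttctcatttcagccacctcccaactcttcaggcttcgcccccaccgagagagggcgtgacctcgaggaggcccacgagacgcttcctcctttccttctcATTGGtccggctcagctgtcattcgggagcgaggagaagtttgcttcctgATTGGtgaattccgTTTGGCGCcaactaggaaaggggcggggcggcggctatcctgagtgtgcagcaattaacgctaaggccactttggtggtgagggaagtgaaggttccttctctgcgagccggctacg
Ccnb3: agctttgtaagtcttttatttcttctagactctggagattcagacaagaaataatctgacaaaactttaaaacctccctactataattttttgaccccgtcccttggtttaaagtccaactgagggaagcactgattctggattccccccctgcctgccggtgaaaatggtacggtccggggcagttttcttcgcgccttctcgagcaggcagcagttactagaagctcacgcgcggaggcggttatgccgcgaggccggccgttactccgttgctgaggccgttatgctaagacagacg
The Cdk1 window held 1 E2F match, TTTCGCGC, 2 CHR matches and 3 CCAAT matches, and the Cdc25a window 1 E2F match, TTTGGCGC, and 2 CCAAT matches. The E2f8 window held 1 CHR and 1 CCAAT match. None of these letters was in the Ccne1 or Ccnb3 window, which says only that those strings are not there. Among all 46 windows of the 42 genes, 7 (15.2%) held the E2F letters, 9 (19.6%) the CHR and 23 (50%) the CCAAT box. The shares of all 32851 windows were 2.26%, 17.9% and 37.4%. Base composition differed: windows of the 42 genes held 6 to 53 CpG and 50.3% to 81.3% G and C. The medians over all windows were 7 CpG and 52.7%. The E2F letters hold a CpG themselves, and the part of composition in these shares was not tested.

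Among the D and E cyclins, which act in G1, Ccne1 was the most changed and the 3 D cyclins did not move together. Ccne1, which encodes cyclin E1, read 431, 582 and 609 in the GS lines, against a lowest of 2648, a median of 3429.6 and a highest of 4032 in the other 20 lines. The highest GS line stayed far below the lowest of the others. It was 6.53-fold lower in GS than in ES lines (log2 difference -2.71 ± 0.16 SE, limma adjusted p = 3.3e-10) and 6.78-fold lower than in iPS lines (-2.76 ± 0.16, limma adjusted p = 2.29e-10, n = 3 lines each). Ccne2, the second E cyclin, read 499, 592 and 585 in GS lines, against 763, 889 and 869.6 in ES R1, B6-6 and BRC1 and 635, 702 and 450.2 in iPS lines, and passed neither test (-0.59 ± 0.25 over ES and -0.07 ± 0.25 over iPS). Ccnd3, cyclin D3, read 806, 1137 and 1354 in GS lines and averaged 1897 in ES and 2406 in iPS lines. It fell in GS by 0.82 ± 0.21 against ES (adjusted p = 0.00334) and by 1.16 ± 0.21 against iPS (adjusted p = 0.000136). Ccnd1, cyclin D1, read 2155, 815 and 1203 in GS lines, against 1959, 3096 and 4159 in ES and 2607, 2723 and 2323 in iPS lines. GS 1 was above ES R1, so the GS and ES lines overlap, while all GS lines were below all iPS lines. Ccnd1 fell by 1.19 ± 0.32 against ES (adjusted p = 0.00544, or 0.0508 when only these groups were fitted, and a difference of -0.79 with the feeder markers as a covariate) and by 0.99 ± 0.32 against iPS (adjusted p = 0.0153, or 0.105 without GS 2).

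Ccnd2, cyclin D2, read 3381, 4632 and 5505 in GS lines, above the 1115, 893 and 866 of iPS and the 807, 1553 and 1886 of ES lines. It was 2.21 ± 0.89 higher on the log2 scale in GS than in iPS lines (limma adjusted p = 0.0428) and 1.73 ± 0.89 higher than in ES lines, which did not pass (adjusted p = 0.126). The call against iPS was lost in 8 of 34 alternatives, with adjusted p = 0.054, 0.0906 and 0.112 without GS 1, GS 2 and GS 3, 0.067, 0.0893 and 0.0969 without iPS 1, 2 and 5, 0.0505 without Sox2 mGS 3 and 0.183 with the clone number as a replicate block. Its spread among the induced lines was wide: the Dnmt mGS lines read 595, 190.1 and 3068, the Dmrt mGS lines 223, 2792 and 2450, the Sox2 mGS lines 3865, 2747 and 3957, the Oct4 mGS lines 2987, 2385 and 997, and the mGS lines 579 and 1887. The Dnmt and Dmrt mGS lines thus spread from below the lowest ES and iPS line to above the highest.

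**Figure D2:**
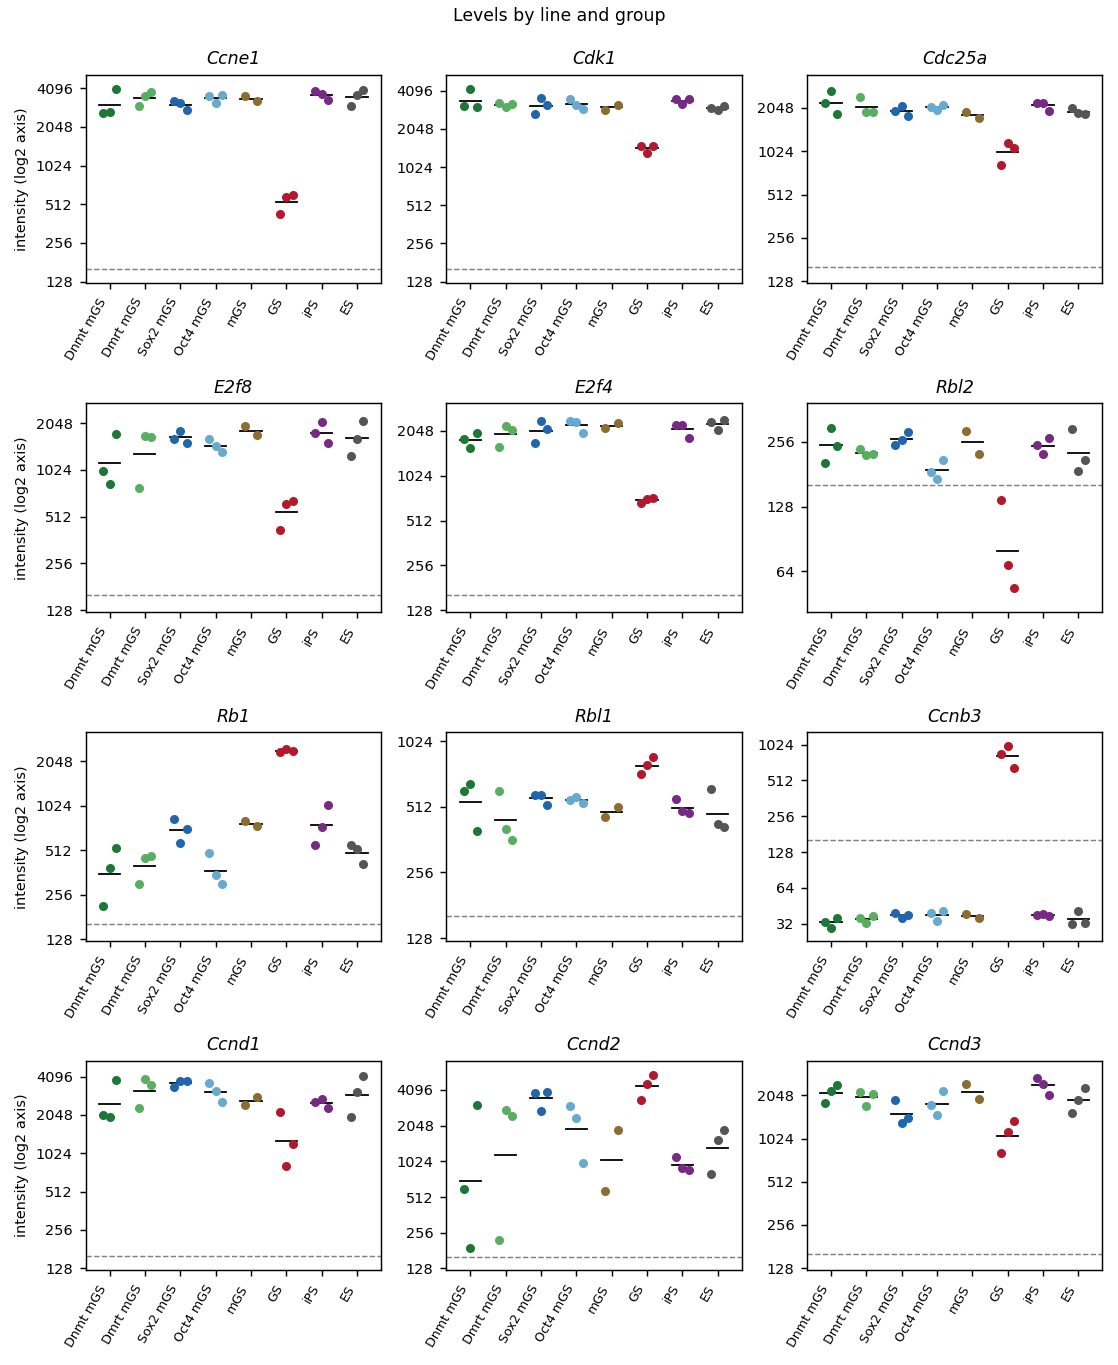
Intensity (log2 axis) of 12 genes in each line (points) with the geometric mean of each group (black bars); the dashed grey line is the background level of 161. GS lines are lowest for Ccne1, Cdk1, Cdc25a, E2f8, E2f4 and Rbl2 and highest for Rb1, Rbl1 and Ccnb3, while Ccnd2 spreads widely within the Dnmt and Dmrt mGS groups.

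The A and B cyclins of S phase and mitosis changed little except for Ccnb3, a germline cyclin known in mouse for its role in female meiosis. Ccnb3 read 853, 1000.1 and 650.4 in GS lines and 29.7 to 41.2, under background, in every other line. Ccnb3 was thus at least 5.10-fold higher in GS than in ES or iPS lines, and limma gave adjusted p = 1.27e-14 over ES and 1.78e-14 over iPS. Markers of meiotic germ cells averaged 240.4 to 273 in GS lines, against 85.5 to 155 in the others; their part in the Ccnb3 difference was not tested. Ccna1, a cyclin of meiotic male germ cells, sat near background, at 212, 193 and 192 in GS, 194, 183 and 199.9 in iPS and 175, 157 and 148 in ES lines. It was higher in GS than in ES lines, by 0.32 ± 0.08 (adjusted p = 0.00315), although the ES mean was under background, so the fold is at least 1.24. That call was lost with all 46 arrays and the line as a random block (adjusted p = 0.0548) or with only the compared groups (0.0507), and the iPS comparison gave 0.05 ± 0.08.

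Ccna2, cyclin A2 of S phase and G2, read 3711, 3061 and 3517 in GS lines, 3933, 3919 and 4055 in iPS and 3782, 4116 and 4328 in ES lines. The differences were small, -0.22 ± 0.09 over iPS (limma adjusted p = 0.0487) and -0.25 ± 0.09 over ES (0.0287), and without GS 2 they gave 0.24 and 0.165. The call over iPS was lost in 22 of 34 alternatives, and the call over ES also without B6-6 (0.0658) or BRC1 (0.111). Ccnb2, the B-type cyclin of mitosis that was measured, read 4272, 2576 and 3432 in GS lines and averaged 4408 in iPS and 4314 in ES lines, with -0.39 ± 0.16 over iPS (0.0402, or 0.262 without GS 2, 0.0733 without GS 3, 0.0871 without iPS 1, 0.052 without iPS 2 and 0.106 without iPS 5) and -0.36 ± 0.16 over ES (0.0678). Ccnf, an F-box cyclin that targets proteins for degradation in G2, fell by 0.51 ± 0.11 against iPS (0.000989), with 1510.0, 1548 and 1395 in GS lines and 2067, 2110.0 and 2162 in iPS lines. Its 3 GS values overlapped the 1632, 1465 and 1852 of ES lines (-0.15 ± 0.11). Ccnb1 is not analysed here.

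Of the cell-cycle CDKs, Cdk1 was the most changed, and the G1 kinases Cdk4 and Cdk6 were not called over ES or iPS. Cdk1, the mitotic kinase, read 1513, 1310.5 and 1505 in GS lines, against a lowest of 2665, a median of 3166 and a highest of 4222 in the other 20. It fell in GS by 1.06 ± 0.12 against ES (limma adjusted p = 1e-06) and by 1.24 ± 0.12 against iPS (1.29e-07). Cdk2, the partner of cyclins E and A, read 1066, 1090.0 and 1073 in GS lines, 1804, 1797 and 1325 in iPS and 1583, 1764 and 1866 in ES lines. The GS lines were below all others, yet the spread elsewhere was large, 1198 to 2838, and its calls over ES (-0.69 ± 0.25, 0.0301) and iPS (-0.59 ± 0.25, 0.0488) were lost in 5 of 33 and 18 of 34 alternatives, with adjusted p up to 0.084 and 0.132. The losses over ES came without GS 1 (0.0596), GS 2 (0.0641), GS 3 (0.0691), B6-6 (0.0657) or BRC1 (0.084). Cdk4, a kinase of D cyclins, read 4756, 5885 and 5757 in GS lines and 5657 to 7728 elsewhere (-0.24 ± 0.12 over iPS and -0.26 ± 0.12 over ES, adjusted p = 0.0889 and 0.0808). Cdk6, its paralog, read 773, 1276 and 651 in GS lines, inside the 436 to 1406 of the other lines. Cdk3 read 121 to 134 in GS lines, under background, with 158 in iPS and 136 in ES lines on average.

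Cdc25a, the phosphatase that removes inhibitory phosphates from Cdk2 and Cdk1, read 826, 1160.0 and 1075 in GS lines, below the lowest of 1742, median of 1977 and highest of 2686 elsewhere. It fell by 0.93 ± 0.14 against ES (limma adjusted p = 1.81e-05) and by 1.08 ± 0.14 against iPS (3.23e-06). Cdc25b and Cdc25c, which act at mitosis, overlapped between GS and other lines. Cdc25b read 649, 301 and 437 in GS, 430.2, 426 and 468 in iPS and 368, 289 and 261 in ES lines, with 0.54 ± 0.20 over ES (0.0386). Its adjusted p was 0.24 without GS 1 (a difference of 0.26), 0.0796 without GS 3, 0.0915 without B6-6 and 0.141 without BRC1; without GS 2 the difference was 0.81. Cdc25c read 571, 339 and 357 in GS and 568, 597 and 698 in iPS lines, with -0.59 ± 0.19 (0.0141), which gave 0.0799 without GS 2, 0.0699 without GS 3, 0.0633 without iPS 5 and 0.115 with the clone number as a replicate block.

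**Figure D3:**
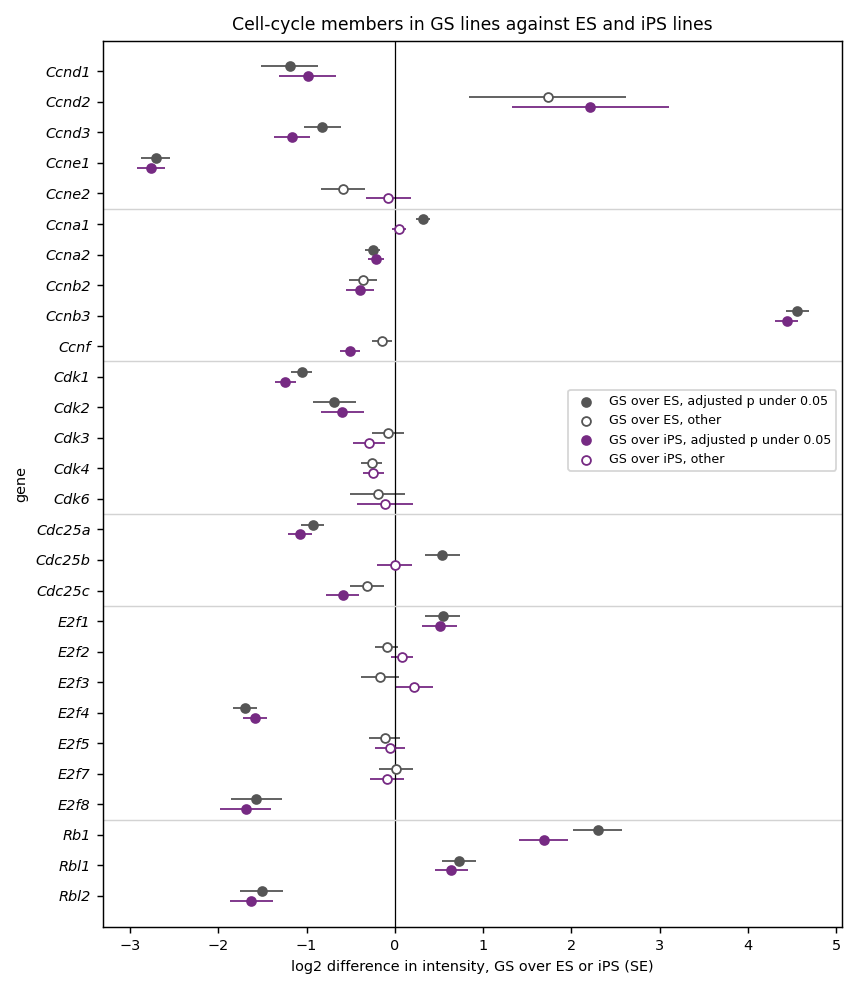
Log2 difference in intensity between GS and ES lines (grey) and between GS and iPS lines (purple) for the 28 genes of the 6 core roles; points are limma estimates, bars 1 SE, filled points adjusted p under 0.05. Both comparisons use the same 3 GS lines; Ccne1, E2f4, E2f8, Rbl2, Cdk1 and Cdc25a lie left of 0 and Ccnb3, Rb1 and Rbl1 right of 0.

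The E2F family did not move as 1 block. E2f4, the main repressor E2F of quiescent and G1 cells, read 669, 710.4 and 728 in GS lines, against 1565, 2131 and 2413 as the lowest, median and highest of the other 20. It fell in GS by 1.70 ± 0.14 against ES (limma adjusted p = 1.56e-08) and by 1.58 ± 0.14 against iPS (3.66e-08). E2f8, an atypical repressor that is itself transcribed in S phase, read 418, 619 and 646 in GS lines, against 785, 1627 and 2111 as the lowest, median and highest elsewhere. It fell by 1.57 ± 0.29 against ES (0.00021) and by 1.69 ± 0.29 against iPS (8.98e-05). E2f7, the other atypical repressor, did not follow: 743, 1063 and 981 in GS lines lay inside the 644 to 1568 of the rest (0.02 ± 0.19 over ES and -0.09 ± 0.19 over iPS). Among the activators, E2f1 was higher in GS lines, at 1439.5, 1310.5 and 1329.6, against 916, 924 and 1029.7 in iPS and 1016, 1122 and 713 in ES lines. The differences were 0.51 ± 0.20 over iPS (0.041) and 0.54 ± 0.20 over ES (0.0368), but each call was lost without any 1 GS line (0.0691 to 0.095 over iPS and 0.0653 to 0.0875 over ES), without any 1 iPS line (0.0561 to 0.0946 over iPS), without BRC1 (0.195 over ES) or with arrays centred on their median (0.115 and 0.0788). E2f2, at 155 to 188 in GS lines, and E2f3, at 759 to 1091, overlapped the other lines, as did E2f5, another repressor, at 861 to 1066, and none of the 3 was called over ES or iPS.

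The 3 pocket proteins, which hold E2Fs in check, went in opposite directions. Rb1 read 2376, 2467 and 2399 in GS lines, against a lowest of 213, a median of 525 and a highest of 1032 in the other 20. It was 4.91-fold higher in GS than in ES lines (2.30 ± 0.28 on the log2 scale, limma adjusted p = 2.59e-06) and 3.21-fold higher than in iPS lines (1.68 ± 0.28, 7.2e-05). Rbl1, which encodes p107, read 720.3, 793 and 865 in GS lines, just above the 362 to 649.8 of the rest, and was higher by 0.73 ± 0.19 over ES (0.00444) and 0.64 ± 0.19 over iPS (0.00911). Rbl2, which encodes p130, read 138, 68.6 and 53.6 in GS lines, all under background, against 172 to 298 elsewhere. It was at least 1.41-fold lower in GS than in ES lines (6.23e-05) and at least 1.53-fold lower than in iPS lines (2.52e-05). GS lines thus had more signal for Rb1 and Rbl1 and less for Rbl2 than every other line.

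The remaining genes are cyclins and CDKs of transcription and of the CDK-activating kinase, and atypical members. Ccnc and Cdk8 are partners in the Mediator kinase module, and they differed in opposite directions. Ccnc read 499.7, 445 and 431 in GS lines and 667 to 1064 elsewhere (-1.01 ± 0.15 over ES, limma adjusted p = 2.49e-05, and -0.95 ± 0.15 over iPS, 4.51e-05). Cdk8 read 3279, 3050.2 and 3106 in GS lines and 1749 to 2580.0 elsewhere (0.66 ± 0.10 over ES, 1.6e-05, and 0.72 ± 0.10 over iPS, 5.63e-06). Ccnh and Cdk7, partners in the CDK-activating kinase, also parted: Ccnh read 1833, 1713 and 1576 in GS lines and 888 to 1293 elsewhere, whereas Cdk7 fell in GS by 0.46 ± 0.11 against both ES (0.00192) and iPS (0.00183). Cdk18, a kinase of the PCTAIRE family, read 382, 265 and 252 in GS lines, against 721, 806 and 695 in iPS and 739.6, 419 and 409 in ES lines. It fell by 1.33 ± 0.19 against iPS (1.59e-05) and by 0.77 ± 0.19 against ES (0.00309, or 0.0584 with only these groups fitted, and a difference of -0.49 without ES R1). Ccng1, a p53-induced cyclin, read 3631, 1845 and 2101 in GS lines and averaged 4481 in iPS and 5098 in ES lines (-0.89 ± 0.31, 0.0223, and -1.08 ± 0.31, 0.00872). Without GS 2 these gave 0.105 over iPS and 0.0523 over ES, and the iPS call was also lost without GS 3 (0.0804) or iPS 5 (0.0767) or with the clone number as a replicate block (0.111).

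Over all 56 genes, GS lines were higher than ES lines for 16 and lower for 15 at a limma adjusted p under 0.05, where 26% and 17.2% of all 19938 genes were called higher and lower. Against iPS lines 17 genes were higher and 19 lower, where the shares of all genes were 35.5% and 18.5%. The members called higher were thus 28.6% over ES and 30.4% over iPS, near those background shares, and the members called lower 26.8% and 33.9%, above them. These shares move with scaling: with arrays centred on their median the iPS comparison called 13 members higher and 20 lower, and 4721 genes higher and 4093 lower, in place of 7077 and 3695. The median log2 difference over all genes was 0.17 over iPS and 0.09 over ES, and over these 56 genes -0.04 over iPS. By role, the D and E cyclins had a median of -0.82 over ES and -0.99 over iPS, and the transcription and CDK-activating group 0.27 and 0.09.

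The same genes were followed from GS to the pluripotent lines derived from them. All 5 comparisons share the 3 GS lines, so their values are given side by side and not counted as repeats. Dnmt mGS lines called 19 members higher and 16 lower than GS (19.1% and 30% of all genes), Dmrt mGS lines 17 and 15 (17.6% and 24.1%), Sox2 mGS lines 15 and 14 (19.4% and 24.7%), Oct4 mGS lines 16 and 13 (20.2% and 22.7%) and spontaneous mGS lines 15 and 14 (16.2% and 26.9%). Without the line labelled Dnmt mGS 2 the Dnmt counts were 15 and 15. Ccne1 averaged 3059.5 in Dnmt, 3429.7 in Dmrt, 3059 in Sox2 and 3429.5 in Oct4 mGS lines and 3404 in mGS lines, against 534 in GS lines. The log2 differences over GS were 2.52 in Dnmt (2.61 without the line labelled Dnmt mGS 2), 2.68 in Dmrt, 2.52 in Sox2, 2.68 in Oct4 and 2.67 in mGS lines, with SE of 0.16 to 0.18. Every one of these lines lay within 2648 to 4032, a range that also holds the ES and iPS lines.

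Rb1 averaged 352 in Dnmt, 399 in Dmrt, 696 in Sox2 and 372 in Oct4 mGS lines and 774 in mGS lines, against 2414 in GS lines. It fell against GS, with log2 differences of -2.78 in Dnmt (-2.84 without the line labelled Dnmt mGS 2), -2.60 in Dmrt, -1.79 in Sox2, -2.70 in Oct4 and -1.64 in mGS lines, with SE of 0.28 to 0.31 and limma adjusted p up to 0.00036. E2f4 rose by 1.34 in Dnmt (1.43 without the line labelled Dnmt mGS 2), 1.47 in Dmrt, 1.54 in Sox2, 1.68 in Oct4 and 1.66 in mGS lines. E2f8 rose by 1.04 in Dnmt (1.27 without the line labelled Dnmt mGS 2), 1.24 in Dmrt, 1.59 in Sox2, 1.41 in Oct4 and 1.74 in mGS lines. Its lowest values outside GS were 785 in Dmrt mGS 1, 1005 in Dnmt mGS 1 and 825 for the line labelled Dnmt mGS 2, nearer to the 646 of GS 3 than to the 1836 that mGS lines averaged. Cdk1 rose by 1.24 in Dnmt (1.09 without the line labelled Dnmt mGS 2), 1.14 in Dmrt, 1.11 in Sox2, 1.15 in Oct4 and 1.07 in mGS lines. Cdc25a rose by 1.14, 1.04, 0.95, 1.04 and 0.86 in the same order (1.00 in Dnmt without the line labelled Dnmt mGS 2), and Cdk18 by 1.52, 1.38, 1.45, 1.86 and 1.21 (1.56 in Dnmt without the line labelled Dnmt mGS 2). Ccnb3 was under background in all of them, against a GS mean of 822. Rbl2 averaged 247 in Dnmt (224 without the line labelled Dnmt mGS 2), 228 in Dmrt, 265 in Sox2 and 189 in Oct4 mGS lines and 255 in mGS lines, against 79.7, under background, in GS lines. Rbl1 fell against GS by 0.55 in Dnmt (0.69 without the line labelled Dnmt mGS 2), 0.82 in Dmrt, 0.50 in Sox2, 0.52 in Oct4 and 0.71 in mGS lines. The Dmrt call apart, these were lost without single lines: limma adjusted p was 0.0542, 0.0833 and 0.146 without GS 2, GS 3 and Dnmt mGS 3 in Dnmt, and 0.0841 without mGS 1 in mGS lines. In Sox2 it was 0.0902 and 0.135 without GS 2 and GS 3, 0.0696 to 0.124 without any 1 Sox2 mGS line, 0.0511 without iPS 2 and 0.0502 without Oct4 mGS 2. In Oct4 it was 0.0763 and 0.113 without GS 2 and GS 3, and 0.0572 to 0.076 without any 1 Oct4 mGS line. With the feeder markers as a covariate, the Rbl1 difference was -0.01 in Sox2 (adjusted p = 0.983) and -0.18 in Oct4 mGS lines (0.378).

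Ccnd1, Cdk10, Ccnc, Ccnh, Ccni, Cdk7, Cdk8 and Cdk20 also passed the test in all 5 comparisons with GS. For Ccnc to Cdk20 the value in brackets is the Dnmt difference without the line labelled Dnmt mGS 2. Ccnc rose over GS by 0.73 to 0.98 (0.88) and Cdk7 by 0.40 to 0.47 (0.42). Ccnh fell by 0.63 to 0.92 (0.65) and Ccni by 0.56 to 0.89 (0.68). Cdk8 fell by 0.37 to 0.72 (0.69) and Cdk20 by 0.39 to 0.67 (0.66). The Cdk7 calls in Sox2, Oct4 and spontaneous mGS lines were lost in some alternatives. Cdk10 fell over GS by 0.59 in Dnmt (0.51 without the line labelled Dnmt mGS 2), 0.78 in Dmrt, 1.12 in Sox2, 0.87 in Oct4 and 0.75 in mGS lines, with SE of 0.12 to 0.14 and limma adjusted p up to 0.000612. Ccnd1 rose over GS by 0.97 in Dnmt (1.14 without the line labelled Dnmt mGS 2), 1.31 in Dmrt, 1.503 in Sox2, 1.27 in Oct4 and 1.04 in mGS lines. Its limma adjusted p became 0.125 without GS 2, 0.0573 without GS 3 and 0.112 without Dnmt mGS 3 in the Dnmt comparison. In the mGS comparison it became 0.126 without GS 2, 0.0655 without GS 3, 0.0651 without mGS 1 and 0.147 without mGS 2. Other genes passed the test in some of these comparisons. Ccng1 rose over GS by 1.06 ± 0.35 in mGS (limma adjusted p = 0.0195), 1.41 ± 0.31 in Sox2 (0.00114) and 1.11 ± 0.31 in Oct4 mGS lines (0.00723). The mGS call was lost without GS 2 (0.0804) or GS 3 (0.0638). Its difference was 1.07 without mGS 1 and 1.06 without mGS 2. Ccng1 was not called in Dnmt (0.39, and 0.45 without the line labelled Dnmt mGS 2) or Dmrt mGS lines. Cdk2 rose over GS by 1.06 ± 0.25 in Dnmt mGS lines (limma adjusted p = 0.0017, and 0.88 without the line labelled Dnmt mGS 2) and by 0.65 ± 0.25 in Dmrt mGS lines (0.041). The Dmrt call was lost without any 1 GS line (0.076 to 0.088) and without Dmrt mGS 1 (0.236). In the other types the Cdk2 means were 1262 in Sox2, 1567 in Oct4 and 1535 in mGS lines, against 1077 in GS lines, and passed no test. Cdk17 fell over GS by 1.06 in Dnmt (1.11 without the line labelled Dnmt mGS 2), 0.94 in Dmrt and 0.93 in Oct4 mGS lines; its Sox2 and mGS means were 1245 and 1163, against 1624 in GS lines, and the mGS call (-0.48, 0.033) was lost without mGS 2 (0.252), GS 2 (0.0948) or GS 3 (0.0632). Ccnj, an atypical cyclin, fell by 1.12 ± 0.21 in Dnmt mGS lines (0.00024, and -1.19 without the line labelled Dnmt mGS 2), by 0.75 ± 0.21 in Dmrt (0.00729) and by 0.81 ± 0.23 in mGS lines (0.00963, or 0.0635 without mGS 2). Its differences of -0.41 in Sox2 and -0.50 in Oct4 mGS lines did not pass (0.124 and 0.0648). Ccnd2 fell by 2.65 ± 0.89 in Dnmt mGS lines (0.019), but by 1.71 without the line labelled Dnmt mGS 2, with limma adjusted p = 0.124, and the call was also lost without Dnmt mGS 1 (0.0551), GS 2 (0.05) or GS 3 (0.0614). Cdk14, a kinase of Wnt signalling, fell by 1.69 ± 0.63 there (0.034), and that call was lost without any 1 GS line (0.0547 to 0.0862), Dnmt mGS 1 (0.111) or the line labelled Dnmt mGS 2 (0.14).

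Other genes of the pathway were taken from fixed lists. Of 14 S phase genes known as E2F targets, none was higher and 9 were lower in GS than in ES lines, and 1 was higher and 8 lower than in iPS lines; their median differences were -0.44 and -0.35. For this and the lists that follow, 26% of all genes were called higher and 17.2% lower over ES, and 35.5% and 18.5% over iPS. Rrm2, the small subunit of ribonucleotide reductase, read 520.4, 818 and 887 in GS lines, against 3269, 3319.6 and 2600.5 in iPS and 2967, 4413 and 3687 in ES lines. Not all of the list was low: Mcm2, a helicase subunit, averaged 3628 in GS, 3509.9 in iPS and 3527 in ES lines. Of 10 mitosis genes, 1 was higher and 6 lower over ES, and none higher and 5 lower over iPS, with Plk1, the mitotic polo kinase, at 1677, 1263 and 1528 in GS and 3477, 3354 and 3485 in iPS lines. Mki67, the proliferation marker, was not called in either (0.09 ± 0.12 in both). Of 9 E2F and DREAM partners, 4 were higher and 2 lower over ES and 3 and 2 over iPS. Mybl2, an activator of G2 genes, averaged 801 in GS, 4312 in iPS and 3515 in ES lines, whereas E2f6, a repressor that silences germline genes in other tissues, averaged 1891 in GS, 499.6 in iPS and 489 in ES lines. Of 7 CDK inhibitors, Cdkn2a was higher in GS lines (502, 425 and 424, against 217, 178 and 235 in iPS and 243, 247 and 299.7 in ES lines). Cdkn1b, which encodes p27, fell against iPS by 0.85 ± 0.19 (limma adjusted p = 0.00099) and was not called against ES (-0.34 ± 0.19). Against ES 3 inhibitors were higher and 1 lower, and against iPS 2 and 2. Of 10 CDK and APC/C regulators, 1 was higher and 3 lower over ES, and 1 and 6 over iPS, with Fbxo5, the APC/C inhibitor, at -1.75 ± 0.15 in both.

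Against GS, the S phase list had 7 higher and 1 lower in Dnmt, 7 and 1 in Dmrt, 3 and 1 in Sox2, 8 and 0 in Oct4 and 7 and 1 in mGS lines, and the mitosis list 6, 5, 4, 5 and 4 higher in the same order with 0 lower in each. The shares of all genes called higher and lower were 19.1% and 30% in Dnmt, 17.6% and 24.1% in Dmrt, 19.4% and 24.7% in Sox2, 20.2% and 22.7% in Oct4 and 16.2% and 26.9% in mGS lines. Without the line labelled Dnmt mGS 2 the Dnmt counts were 5 higher and 1 lower for S phase and 4 and 0 for mitosis, where 17.3% and 26.6% of all genes were called. Rrm2 averaged 3145 in Dnmt (3004 without the line labelled Dnmt mGS 2), 2969 in Dmrt, 2999 in Sox2, 2973 in Oct4 and 2943 in mGS lines, against 723 in GS lines. E2f6 averaged 634 in Dnmt (649.8 without the line labelled Dnmt mGS 2), 633 in Dmrt, 1112 in Sox2, 955.5 in Oct4 and 549.6 in mGS lines, against 1891 in GS lines.

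Among pluripotent lines few members were called. Spontaneous mGS over iPS lines gave 0 members called by limma in either direction (0% of all genes in each), with 1 member and 225 genes at an unadjusted p under 0.05. Dmrt mGS over iPS lines gave 0 and 0 in limma (0.356% and 0.492% of all genes), with 10 members and 3806 genes at an unadjusted p under 0.05. The iPS over ES comparison gave 0 and 0 in limma (0.291% and 0.336%), with 9 members and 2578 genes at that p. Dnmt mGS over iPS lines gave 1 higher and 3 lower (4.18% and 2.69%), or 1 and 2 without the line labelled Dnmt mGS 2, Sox2 mGS over iPS lines 2 and 5 (14.4% and 9.23%) and Oct4 mGS over iPS lines 2 and 2 (10.4% and 3.43%). The 4 routes together over iPS and mGS lines gave 2 and 4 (12% and 6.26%). The direction split of these calls depends on the scaling. With arrays centred on their median the members were 0 higher and 5 lower in Dnmt, 0 and 3 in Dmrt, 0 and 11 in Sox2 and 0 and 3 in Oct4 mGS over iPS lines, and 0 and 7 in the 4 routes over iPS and mGS lines. Over all genes centring gave 396 higher and 905 lower in Dnmt in place of 834 and 536, 33 and 316 in Dmrt in place of 71 and 98, 1284 and 3003 in Sox2 in place of 2870 and 1840, and 358 and 1248 in Oct4 in place of 2067 and 683. It gave 709 and 2182 in place of 2390 and 1249 in the 4 routes together, and 65 and 48 in place of 58 and 67 in iPS over ES. Quantile normalization gave 540 and 680 genes in Dnmt, 74 and 161 in Dmrt, 1814 and 2447 in Sox2 and 670 and 968 in Oct4 mGS over iPS lines, and 1128 and 1665 in the 4 routes together. Among members quantile normalization gave 0 higher and 5 lower in Dnmt, 2 and 8 in Sox2, 0 and 2 in Oct4 and 2 and 7 in the 4 routes together. The median of all genes was 0.10 in Sox2 and 0.12 in Oct4 mGS over iPS lines as deposited, and -0.05 and -0.03 after centring.

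Rb1 and Ccng2 had the log2 differences of at least 1 that were called among pluripotent lines. Rb1 read 213, 386 and 532 in Dnmt mGS and 486, 349.7 and 304 in Oct4 mGS lines, against 557, 739 and 1032 in iPS lines, and these groups did not overlap. It fell against iPS by 1.09 ± 0.28 in Dnmt (limma adjusted p = 0.027) and by 1.01 ± 0.28 in Oct4 mGS lines (0.027). The Dnmt call was lost without Dnmt mGS 1 (0.154), the line labelled Dnmt mGS 2 (0.0537), iPS 2 (0.0935) or iPS 5 (0.115), and the Oct4 call without iPS 2 (0.0696), iPS 5 (0.113), Oct4 mGS 2 (0.0761) or Oct4 mGS 3 (0.0621). Both were also lost with the clone number as a replicate block (0.133 in Dnmt and 0.126 in Oct4) and with only the groups compared (0.137 and 0.0689). For the 4 routes over iPS and mGS lines Rb1 fell by 0.80 ± 0.19 (0.0085, or 0.0528 without mGS 1). Ccng2, a cyclin linked to cell-cycle exit, read 199.9, 239 and 229.5 in Sox2 mGS lines, against 409, 437 and 538 in iPS lines, and fell by 1.04 ± 0.21 (0.0027). It fell against iPS by 0.94 in Dnmt (0.014, and 1.20 without the line labelled Dnmt mGS 2) and 0.71 in Oct4 mGS lines (0.035), calls that were lost in 5 and 7 of 34 alternatives (limma adjusted p up to 0.0831 and 0.153, both with the clone number as a replicate block). It averaged 458 in iPS and 267 in ES lines, which was not called (0.78, adjusted p = 0.105). The iPS mean was the highest of all groups. Ccng2 averaged 285 in mGS, 258 in Dmrt mGS and 335 in GS lines, and mGS and Dmrt mGS over iPS were not called either.

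Set against the other 3 routes, Dnmt mGS lines had 5 members higher and 3 lower (8.86% and 10.4% of all genes), or 3 and 0 without the line labelled Dnmt mGS 2, and Sox2 mGS lines 4 and 5 (5.99% and 8.16%), or 4 and 2 when that line was left out of the other routes. Dmrt mGS lines had 0 and 0 (0.145% and 0.171%), with 2 members and 2059 genes at an unadjusted p under 0.05 in limma, and Oct4 mGS lines 0 and 0 (0.813% and 0.251%), with 7 members and 3312 genes. After centring, all genes called were 1852 higher and 1179 lower in Dnmt in place of 1766 and 2067, and 18 and 28 in Oct4 in place of 162 and 50. Quantile normalization gave 1963 and 1526 in Dnmt, 80 and 41 in Dmrt in place of 29 and 34, and 60 and 67 in Oct4. E2f2, an activating E2F, read 230.4, 219.8 and 249 in Dnmt mGS lines, 217, 171 and 197 in Dmrt, 135, 161 and 120.1 in Sox2 and 156, 144 and 176 in Oct4 mGS lines. The Sox2 and Oct4 mGS means, 138 and 158, were under the background level of 161. The fitted difference was 0.53 ± 0.10 for Dnmt mGS lines (limma adjusted p = 0.00439, and 0.57 without the line labelled Dnmt mGS 2) and -0.48 ± 0.10 for Sox2 mGS lines (0.00596, or 0.079 without Sox2 mGS 3), and no fold is read from either. Rb1 was higher in Sox2 mGS lines, at 829, 569 and 715, than in the other routes by 0.90 ± 0.23 (0.0167), a call lost without Sox2 mGS 1 (0.0885) or Sox2 mGS 3 (0.0937) and with the feeder markers as a covariate (0.69, 0.137).

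Some members moved with the feeder fibroblast markers from line to line. Over the 20 lines outside GS, Ccnd2 had a Pearson r of 0.89 and a Spearman rho of 0.91 with the mean log2 level of those markers, Cdk14 0.84 and 0.88, and Ccnd1 0.84 and 0.79. These are descriptions over arrays that measured both values. Within groups r was 0.93, 0.92 and 0.88, and without the 2 lines farthest from the median 0.92, 0.80 and 0.83. By contrast r over the 20 lines was 0.07 for Rb1 and 0.14 for Ccne1, although within groups it was 0.40 and 0.59. For E2f8 r was 0.40 over the 20 lines and 0.77 within groups. Other members moved the opposite way, though none had r below -0.8 over the 20 lines. There r was -0.77 for Ccnq and -0.75 for Cdc25c. Within groups it was -0.87 for Cdc25a, -0.82 for Cdc25c, -0.77 for Rbl1, -0.76 for Ccnb2 and -0.71 for Cdk2. For Ccnd2 the relation was seen in pairs of lines. Ccnd2 read 190.1 in the line labelled Dnmt mGS 2, where the markers averaged 248. In Dnmt mGS 3 it read 3068, and the markers averaged 1348. In GS 2 and 3 Ccnd2 read 4632 and 5505 although the markers averaged 288 and 245. In GS 1, where the markers averaged 789, it read 3381, the lowest of the GS lines. GS 1 also had the highest Ccnd1 (2155, against 815 and 1203) and Ccng1 (3631, against 1845 and 2101) of the GS lines. The part of feeder cells in these GS 1 values was not tested. With the marker level as a covariate, an alternative added after seeing the data, Ccnd2 in GS over iPS was 1.86 (limma adjusted p = 0.00632). Ccnd1 over GS then gave 0.58 in Sox2 mGS (0.0635, in place of 1.503) and 0.63 in Oct4 mGS lines (0.0215, in place of 1.27). Ccng1 over GS gave 0.64 in Sox2 mGS lines (0.0932, in place of 1.41) and 0.57 in Oct4 mGS lines (0.0818, in place of 1.11).

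**Figure D4:**
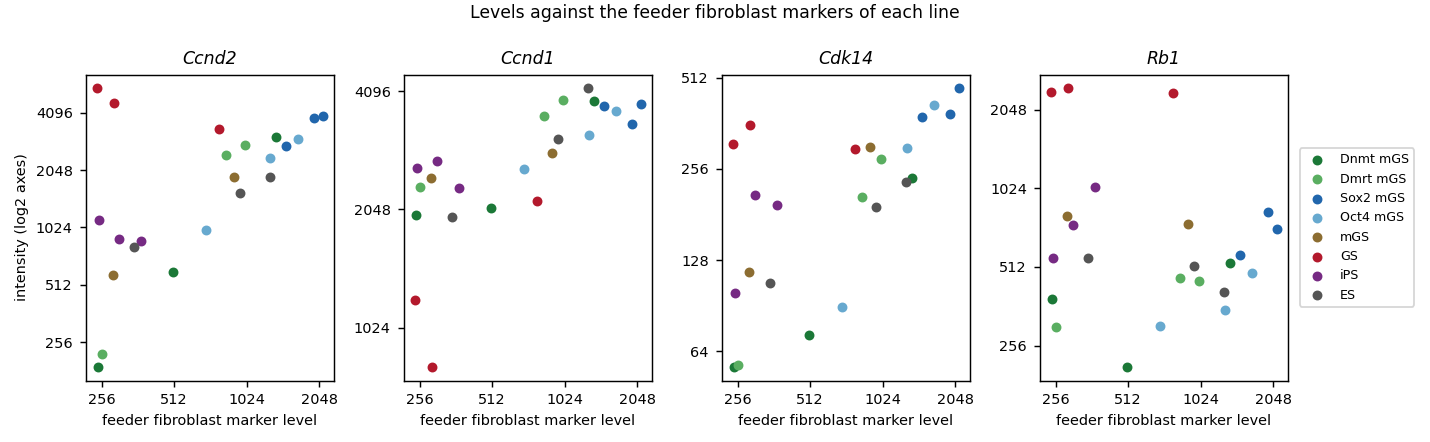
Intensity of Ccnd2, Ccnd1, Cdk14 and Rb1 (vertical, log2 axis) against the mean level of 12 feeder fibroblast markers (horizontal, log2 axis), 1 point per line coloured by group. Outside GS the first 3 genes follow the markers (r of 0.89, 0.84 and 0.84 over 20 lines). Rb1 does not over the 20 lines (0.07), although its r within groups is 0.40. The GS lines lie above the other lines for Rb1.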

How the data were processed

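The deposited table held linear microarray intensity for 28856 probe sets on 46 arrays, with the authors' scaling not given in the sources used. The genome build is mm9 per the submitters' processing notes. Values ran from 16 to 27420.2, and log2 was taken with no pseudocount. The 21789 probe sets with a single symbol gave 19938 genes, each read from its brightest probe set; 1621 with several symbols and 5446 without one were left out.

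Log2 values of both cultures of a line were averaged. A replicate is therefore a line, and p-values cover only line-to-line spread. All 23 lines entered 1 limma fit (lmFit and eBayes of limma 3.58.1 under R 4.3.3; 15 residual degrees of freedom), with Benjamini-Hochberg adjustment over all genes in each comparison and a threshold of 0.05. The fit was tested on simulated data. Group means are geometric means, and SE is that of the fit. A fold against a mean under the background level of 161 is given as "at least", with that level in place of the dim mean. The number of arrays limits the precision.

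The genes and lists were chosen with earlier results of these data known. Named genes were the cell-cycle members and, in each comparison, members with a log2 difference of at least 1, an adjusted p under 0.05 and no overlap between lines, at most 8 in each direction; others named with values were chosen after their values were seen. The alternatives were single arrays blocked by line (duplicateCorrelation, statmod 1.5.0), culture or clone number as a replicate block, only the groups compared, quantile normalization, centring on the array median, leaving out the dimmest 40% of genes, an intensity trend, averaged probe sets and leaving out each line. A feeder marker covariate and leaving out the array with the highest median were added after seeing the data. Ccnb1 is not analysed here, and 7 CDK inhibitors and 14 S phase genes of the lists were measured.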

Additional observations from a re-analysis of the deposited data

Results flagged for a closer look

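Tests of 1 route against the equal-weighted mean of the other 3 were themselves tests of a difference between routes, made with limma, and 2 routes had members that passed at an adjusted p under 0.05. In Dnmt mGS lines E2f2 differed from the other routes by 0.527 on the log2 scale, Cdk2 by 0.5815, Cdk10 by 0.3309, Ccnh by 0.2104 and Cdk16 by 0.2081, all higher. Ccnj differed by -0.5702, E2f7, an atypical repressor E2F, by -0.5647 and Ccnl1, a cyclin of RNA processing, by -0.4924. Without the line labelled Dnmt mGS 2, whose Dnmt1 level of 2752 goes against its label, E2f2, Cdk10 and Cdk16 still passed and the other members did not. Over all 34 alternatives the Cdk2 call was lost in 23, Ccnl1 in 17, Ccnh in 7, Ccnj in 5, Cdk10 and E2f7 in 4 each and Cdk16 in 3, with adjusted p up to 0.256.

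In Sox2 mGS lines Rb1 differed from the other routes by 0.896, Ccnl1 by 0.6105, E2f7 by 0.6031 and Cdk17 by 0.5929, all higher. E2f2 differed by -0.4841, Cdk10 by -0.3737, Ccnt1 by -0.3392, Ccno by -0.3316 and Ccnt2 by -0.2881. These calls were lost in 21 of 34 alternatives for Ccno, 19 for Ccnt1, 9 for Ccnt2, 4 for Rb1 and E2f7 each, 3 for Ccnl1 and Cdk10 each and 2 for Cdk17, with adjusted p up to 0.365. E2f2 averaged 138 in Sox2 and 158 in Oct4 mGS lines, under the background level of 161, so no fold is read from its differences in either comparison; its Dnmt call held in all 33 alternatives that kept the gene and its Sox2 call was lost without Sox2 mGS 3 (0.079). The lines labelled Sox2 mGS, whose Sox2 level of 1253 to 1303 goes against that label, also had the highest feeder fibroblast marker levels, 1492 to 2119, against 248 to 1667 in the other routes. With those markers as a covariate 1 member was called in each of these comparisons.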

How the results depend on the processing

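Of 259 called member results, 149 stayed called in every alternative run and 0 reversed; of 78 named results, 67 stayed called. The 7 comparisons with GS kept their total counts of called members within 1.5 times the reported ones, and so did mGS over iPS and Dmrt mGS over the other routes. By direction, 3 counts moved further: members higher in mGS over GS were 9 in place of 15 without mGS 1, members lower in Sox2 mGS over GS 9 in place of 14 without Sox2 mGS 3, and members higher in GS over iPS 11 in place of 17 with the clone number as a replicate block.

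Other counts moved. With 46 arrays and the line as a random block, the called members were 3 in iPS over ES, 7, 4, 14 and 8 in Dnmt, Dmrt, Sox2 and Oct4 mGS over iPS, 17, 19 and 2 in Dnmt, Sox2 and Oct4 mGS over the other routes, and 13 in the 4 routes over iPS and mGS. With the culture number as a replicate block as well, they were 3, then 7, 3, 14 and 7, then 16, 18 and 2, then 13. With the clone number as a replicate block they were 0 in Dnmt and 2 in Oct4 mGS over iPS. With only the groups compared they were 18 in Sox2 and 2 in Oct4 mGS over iPS, and 3 and 5 in Dnmt and Sox2 mGS over the other routes. Centring gave 3 in Dmrt and 11 in Sox2 mGS over iPS, and quantile normalization 2 in Oct4 mGS over iPS. The feeder covariate gave 1 in iPS over ES, 11, 2, 3 and 2 in Dnmt, Dmrt, Sox2 and Oct4 mGS over iPS, 1 in Dnmt and 1 in Sox2 mGS over the other routes, and 12 in the 4 routes over iPS and mGS.

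Leaving out 1 line at a time gave 0 to 3 in iPS over ES, 0 to 6, 0 to 1, 2 to 9 and 0 to 7 in Dnmt, Dmrt, Sox2 and Oct4 mGS over iPS, 1 to 18, 0 to 14 and 0 to 1 in Dnmt, Sox2 and Oct4 mGS over the other routes, and 0 to 9 in the 4 routes over iPS and mGS. The cause of these moves was not tested. The 4 routes count of 0 came without mGS 1.

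Deviations of lines with the same clone number had a median r of 0.09 over 52 pairs, from -0.64 to 0.79. Lines with different numbers had a median r of -0.002 over 119 pairs, from -0.83 to 0.75. These ranges overlap, so the values cannot decide whether the numbers pair the lines. Groups held 2 or 3 lines, medium is confounded with every GS comparison, and differences near the background level of 161 are compressed.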
